A study of Mus musculus with 6 samples.

Results

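Sub-cluster 5 was a group of 763 cells among the 25428 cells of mouse retinal pigment epithelium (RPE) and choroid that had been dissociated, grown in culture and profiled by single-cell RNA sequencing. Its members carried the deposited cell type Fibroblast-like together with fibroblast sub-cluster number 5, so both names came from the study's own clustering of gene expression. The 6 samples came from male C57BL/6J mice aged 12 to 16 months, 3 of them Dram2 wt/wt and 3 Dram2 ko/ko, the latter homozygous for a constitutive CRISPR/Cas9 deletion within Dram2, a gene for a lysosomal membrane protein linked to autophagy and mutated in an inherited retinal dystrophy. The labels put Dram2 ko/ko replicate 3 in batch 2 and the other 5 samples in batch 1, without saying what a batch was, so that batch and that sample cannot be told apart. The labels call the tissue choroid and do not say whether the samples of a genotype came from separate mice or cultures, so that p-values measure only the spread between these samples, which may be technical.

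Fibroblasts make the collagens, proteoglycans and matricellular proteins of connective tissue, and in culture many take on the actin fibres of a myofibroblast. Messenger RNA is made in the nucleus and read by ribosomes in the cytoplasm, but some long non-coding RNAs, among them Malat1 and Neat1, stay in the nucleus. In droplet sequencing a cell is read as the set of its polyadenylated RNA molecules, each counted once by a unique molecular identifier (UMI), so that the balance of nuclear and cytoplasmic RNA can be followed alongside the markers of a cell type.

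The cells of sub-cluster 5 held little RNA. Their median was 5756 UMIs and 2037 genes per cell, against 26108 UMIs and 5897 genes in the 12651 cells named Fibroblast, the main fibroblast type. The median of sub-cluster 5 was 5637, 5518 and 5874 UMIs in Dram2 wt/wt replicates 1 to 3 and 6252.5, 5288 and 5924 UMIs in Dram2 ko/ko replicates 1 to 3. These medians lay close together, whereas the Fibroblast medians of the same samples ranged from 17339.5 to 58112 UMIs. Sub-cluster 5 therefore stood at between 0.132 and 0.321 of the median of its own sample over all cells. Mitochondrially encoded transcripts made up a median of 2.06% of the UMIs of a cell, against 2.97% in Fibroblast cells, and 12 of the 763 cells exceeded 20%. Cell barcode sequences were not part of the files used here, so barcodes shared between libraries could not be counted, and no doublet caller was run.

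Most Fibroblast-like cells belonged to sub-cluster 5, and those of sub-clusters 6 and 8 were unlike it. Of 1121 Fibroblast-like cells, 168 were in sub-cluster 6, with a median of 3208 UMIs and with 33.5% of all UMIs mitochondrial. Another 168 were in sub-cluster 8, with 3150 UMIs and 89.0% mitochondrial. The 22 cells elsewhere were nearer sub-cluster 5, with medians of 4211 UMIs, 2101.5 genes and 1.75% mitochondrial UMIs per cell. Malat1, the abundant nuclear long non-coding RNA, reached 118175 CPM (UMIs of the gene per 1000000 UMIs of the summed cells) in sub-cluster 6 and 5653 CPM in sub-cluster 8, against a mean of 631 CPM in sub-cluster 5. Cytosolic ribosomal protein genes summed to 5851 CPM in sub-cluster 6 and 2401 CPM in sub-cluster 8, against 51956 CPM in sub-cluster 5. A further 49 cells carried sub-cluster number 5 under another type name, 30 of them as Fibroblast, 9 as Fibroblast 2 and 10 as Fibroblast proliferating, and are not counted here.

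The name was checked against fibroblast markers. Because the study grouped the cells by their gene expression, every comparison of sub-cluster 5 with other cells is a description and carries no test. Mgp, matrix Gla protein and an inhibitor of calcification (chromosome 6, 136872435 to 136875823, GRCm38), was abundant at 2097, 2359 and 2747 CPM in Dram2 wt/wt and 2636, 2022 and 2100 CPM in Dram2 ko/ko samples. Fibroblast cells held a mean of 2931 CPM, so Mgp was near the fibroblast level, and it was also higher than in the cells named Endothelial, at 709 CPM, and Myeloid, at 1300 CPM. Col1a1, the alpha 1 chain of type I collagen (chromosome 11, 94936224 to 94953042), was at 66.6, 103 and 75.3 CPM in Dram2 wt/wt and 37.0, 64.2 and 79.4 CPM in Dram2 ko/ko samples. This was 9.49-fold below the Fibroblast mean of 673 CPM and also below the Endothelial mean of 130 CPM and the Myeloid mean of 329 CPM.

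Because cells of unequal depth differ in how often a gene is seen, each cell was also thinned to 2000 UMIs, which no sub-cluster 5 cell fell short of. At that depth Mgp was seen in 72.5% of sub-cluster 5 cells, against 75.0% of Fibroblast, 37.5% of Endothelial and 57.1% of Myeloid cells (87.5%, 97.7%, 66.7% and 84.5% before thinning). Col1a1 was seen in 9.57% of sub-cluster 5 cells and in 8.33% of Endothelial and 38.1% of Myeloid cells, cell types that should lack it, against 68.2% of Fibroblast cells (24.6%, 17.4%, 67.9% and 98.2% before thinning, at median depths of 5756, 9262.5, 16550 and 26108 UMIs). The share of sub-cluster 5 cells with Col1a1 was close to that of Endothelial cells and below that of Myeloid cells. It is therefore not read as expression, and where these UMIs came from was not tested. The Endothelial share rested on 288 cells, at 0 to 16.7% by sample, and the Myeloid share on 84 cells, at 14.3 to 46.9%. Acta2, smooth muscle actin, was seen in 99.0% of sub-cluster 5 cells at 2000 UMIs, against 94.7% of Fibroblast, 96.9% of Fibroblast proliferating, 92.8% of RPE, 84.5% of Myeloid and 49.0% of Endothelial cells. Mgp was likewise seen in 88.1% of Fibroblast proliferating cells, so a high share of cells with either gene was not particular to sub-cluster 5.

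Over the 15 fibroblast markers, 14 were measured, meaning at 10 CPM or more in sub-cluster 5 or Fibroblast cells, and 12 of these were lower than in the Fibroblast cells of the same sample in all 6 samples and none higher. Of all 8886 measured genes 55.4% were lower and 20.7% higher in all 6 samples, the background for every such count. The median log2 ratio of the fibroblast markers was -2.27, from -3.39 for Col3a1, a fibrillar collagen, to 0.34 for Thy1, a cell surface glycoprotein. Several defining markers of other cell types had no UMI, whereas Emcn and Krt19 were near their Fibroblast level. No UMI of the 6 T cell and 5 red blood cell markers was found, which allows a level of up to 0.568 CPM for each (3 counts over all 6 samples, counting error only). Pecam1, Tie1, Tek, Cldn5 and Erg of the endothelial list, Rpe65, Rlbp1, Best1, Ttr and Lrat of the RPE list, and Ptprc, Adgre1, C1qa and C1qc of the myeloid list had no UMI either. The 11 endothelial markers summed to between 319 and 417 CPM, almost all of it Emcn, a sialomucin, at a mean of 348 CPM against 406 CPM in Fibroblast cells, while the Endothelial cells themselves reached 10657 CPM. The 14 RPE markers summed to 8.22 to 29.0 CPM against 956 CPM in the cells named RPE, and the 11 myeloid markers to 8.69 to 80.7 CPM against 16739 CPM in Myeloid cells. The 9 Schwann, 7 melanocyte and 8 photoreceptor markers reached at most 6.02, 1.37 and 4.11 CPM. Of the 7 epithelial markers only Krt19, an intermediate filament protein, exceeded 10 CPM, at 168 CPM against 122 CPM in Fibroblast cells. The 8 bone and cartilage markers summed to 4.01 to 14.5 CPM, against 95.5 CPM in Fibroblast cells, and the 10 pericyte and smooth muscle markers to 112 to 223 CPM, against 347 CPM.

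Of the gene lists, nuclear-retained long non-coding RNA lay furthest below the Fibroblast level. Malat1 (chromosome 19, 5795690 to 5802672) was at 1254, 954 and 344 CPM in Dram2 wt/wt and 177, 694 and 366 CPM in Dram2 ko/ko samples. The Fibroblast cells of the same samples held 14075 to 21373 CPM, so no sample came near them, and the log2 ratio lay between -6.77 and -3.88. Neat1, the scaffold of nuclear paraspeckles, was at 7.45 to 16.3 CPM against a Fibroblast mean of 429 CPM. Kcnq1ot1 and Meg3, long non-coding RNAs of imprinted loci, were at means of 2.59 and 7.78 CPM against 137 and 447 CPM. All 5 measured nuclear-retained RNAs were lower in all 6 samples, with a median log2 ratio of -5.27. The median over all 8886 measured genes was -0.61, with 5% and 95% points of -2.89 and 0.85.

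The low Malat1 level was shared by nearly all cells. After thinning to 2000 UMIs, 61.3% of sub-cluster 5 cells held no Malat1 UMI and 96.5%, or 736 of 763 cells, held 5 or fewer. The median was 0 UMIs in each of the 6 samples. The other 27 cells held 507 of the 898 thinned Malat1 UMIs, or 56.5%, and 1 cell alone held 126, so the summed level and its spread between samples rested largely on few cells. Their part was 68.7%, 75.2% and 30.0% in Dram2 wt/wt and 8.60%, 56.0% and 45.5% in Dram2 ko/ko samples. The median Fibroblast cell held 33 Malat1 UMIs at the same depth, and 2.00% of Fibroblast cells held 5 or fewer. This share was 6.95% of Fibroblast proliferating cells, 0.861% of Fibroblast 2 cells and 21.7% of RPE cells.

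**Figure D1:**
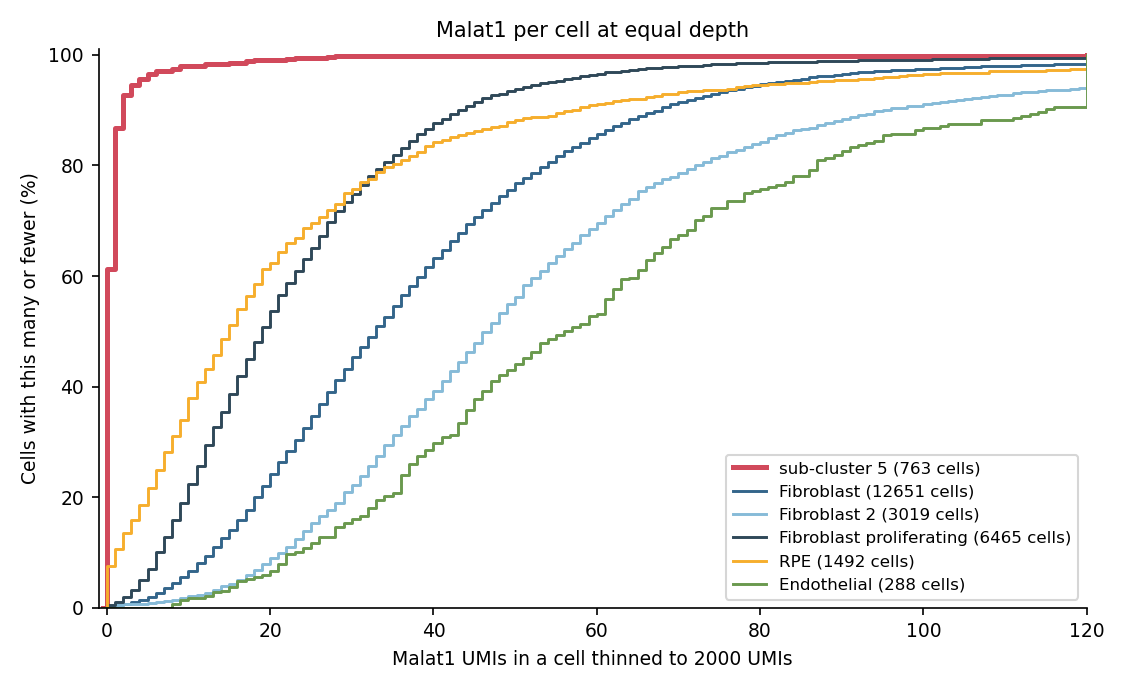
Cumulative share of cells (vertical axis, %) by the number of Malat1 UMIs in a cell thinned to 2000 UMIs (horizontal axis), for sub-cluster 5 and 5 cell types named by the study. The sub-cluster 5 curve starts at 61.3% and stands at 96.5% by 5 UMIs, whereas the curves of the other groups rise over a wide range of UMIs.

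Genes of the annotation class TEC, putative transcripts that still await experimental evidence, followed Malat1. Of 38 such genes, 37 were lower in all 6 samples, with a median log2 ratio of -4.00. Among genes at 50 CPM or more in either group, the 12 lowest against Fibroblast cells were Meg3, Neat1, Kcnq1ot1, Malat1, Gm38211 and Gm37606 beside 6 coding genes. Those were Zfp292, a zinc finger transcription factor gene, Ccn1, a matricellular protein gene, Adm and Edn1, which encode the vasoactive peptides adrenomedullin and endothelin 1, Egr1, an immediate early transcription factor gene, and Plpp3, a lipid phosphate phosphatase gene. Zfp292 was found in 6 UMIs over all 763 cells, at a mean of 1.11 CPM against 51.0 CPM in Fibroblast cells, and Ccn1 was at 42.4 CPM against 1104 CPM. LincRNAs, a class that includes Malat1, took 0.271% of all sub-cluster 5 UMIs and 2.16% of Fibroblast UMIs. As a class they were near the background of all measured genes. Of 47 measured lincRNA genes 26 were lower and 9 higher in all 6 samples, against 55.4% and 20.7% of all measured genes. Their median log2 ratio was -0.77, against -0.61. Processed pseudogenes went the other way, with 191 of 268 higher in all 6 samples and none lower. Reads in sequence that such a copy shares with its parent gene cannot be told apart.

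Immediate early genes were low as a group. All 15 measured immediate early genes, which cells switch on within minutes of a stimulus and whose messages decay fast, were lower than in Fibroblast cells in all 6 samples, with a median log2 ratio of -3.29. Fos, a subunit of the AP-1 factor, was at 0.587 to 4.01 CPM, 10 UMIs in all, against a Fibroblast range of 41.7 to 81.9 CPM. Jun, its partner, was at 29.3, 32.6 and 20.5 CPM in Dram2 wt/wt and 11.7, 16.0 and 11.2 CPM in Dram2 ko/ko samples, against a Fibroblast mean of 230 CPM. Dusp1, a phosphatase of MAP kinases, was at a mean of 31.4 CPM against 490 CPM. The highest member, Jund, was at 131 CPM against 339 CPM and had the smallest difference, a log2 ratio of -1.39.

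Matrix and secreted factors were also low. Of 36 measured matrix genes 34 were lower in all 6 samples and none higher, with a median log2 ratio of -2.18. Ccn1 and Ccn2, matricellular proteins, stood at -5.00 and -3.93, and Fn1, fibronectin, was at 56.3 to 162 CPM against a Fibroblast mean of 738 CPM. The smallest differences were those of Mgp, at -0.42, and Timp1, an inhibitor of metalloproteinases, at 2720 ± 479 CPM against 3995 CPM. All 12 measured secreted inflammatory genes were lower, with a median of -2.67. Ptgs2, the inducible cyclooxygenase, was at 277 ± 60.8 CPM against 2184 CPM, and Spp1, osteopontin, at 812 ± 199 CPM against 1739 CPM. These ratios are to the type Fibroblast alone. In thinned cells Fn1 was seen in 15.2% of sub-cluster 5 and 11.6% of Fibroblast 2 cells, so low Fn1 was not particular to sub-cluster 5. Col1a2, a type I collagen chain, was at 9.57% and 12.4%, and Mgp at 72.5% and 30.0%. Col1a1 and Sparc were lower in sub-cluster 5, at 9.57% and 67.8% against 26.0% and 91.2%. The matrix list summed to a mean of 11216 CPM, against 23509 CPM in Fibroblast 2 cells.

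Lysosomal genes were mostly lower. The shares of heat shock, p53 and autophagy genes that were lower lay closer to the 55.4% of all measured genes or below it. The median log2 ratios of the heat shock and p53 lists, -1.28 and -1.43, were nonetheless near the lysosomal median. The median of all measured genes was -0.61. Of 25 lysosomal genes 23 were lower and 1 higher, with a median of -1.30, for example Ctsl, cathepsin L, at 750 CPM against 1730 CPM and Lamp1, a lysosomal membrane protein, at 585 CPM against 1144 CPM. Of 13 heat shock and unfolded protein genes 9 were lower and 1 higher, the latter Hspb1, a small heat shock protein, at 1327 CPM against 876 CPM. Of 14 p53 targets and apoptosis genes 9 were lower, including Mdm2, the ubiquitin ligase of p53, at 147 CPM against 732 CPM, and 3 were higher, including Bax, a pro-apoptotic protein, at 1238 CPM against 1066 CPM. Of 8 interferon response genes 6 were lower and none higher. Autophagy genes were split, with 9 of 23 lower, 5 higher and a median of -0.19, and Gabarap, an ATG8-family protein, was at 1465 CPM against 1435 CPM.

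Transcripts of the cytoskeleton, the ribosome and energy metabolism made up more of the RNA in sub-cluster 5. Of 79 measured cytosolic ribosomal protein genes 69 were higher than in Fibroblast cells in all 6 samples and none lower, with a median log2 ratio of 0.73. Rplp1, a protein of the ribosomal stalk, was at 6235 CPM against 3092 CPM. These genes have many near-identical copies, so that the level of each one is uncertain. Actb, cytoplasmic actin, was at 18577, 17784 and 16204 CPM in Dram2 wt/wt and 19918, 18085 and 16810 CPM in Dram2 ko/ko samples, all above the Fibroblast range of 9419 to 11778 CPM. Acta2 was at 16760 ± 2023 CPM (SD, n = 6) against 11071 CPM, and Vim, vimentin, at 8035 ± 957 CPM against 5135 CPM. In all, 12 of 20 contractile and cytoskeletal genes were higher and 4 lower, the lowest being Vcl, vinculin, at -2.10 and Flna, filamin A, at -1.52.

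Energy genes followed. Of 19 nuclear-encoded respiratory chain genes 16 were higher and 1 lower, with a median of 0.44, for example Cox4i1, a cytochrome c oxidase subunit, at 2365 ± 150 CPM against 1723 CPM. Mitochondrially encoded genes did not share this direction, since none of the 10 measured members was higher or lower in all 6 samples. Their sum ranged from 15020 to 43756 CPM. Of 14 genes of glycolysis and hypoxia 8 were higher, for example Pkm, pyruvate kinase, at 1984 CPM against 1215 CPM. Adm and Vegfa, hypoxia-induced secreted factors of the same list, were at log2 ratios of -4.52 and -3.25.

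**Figure D2:**
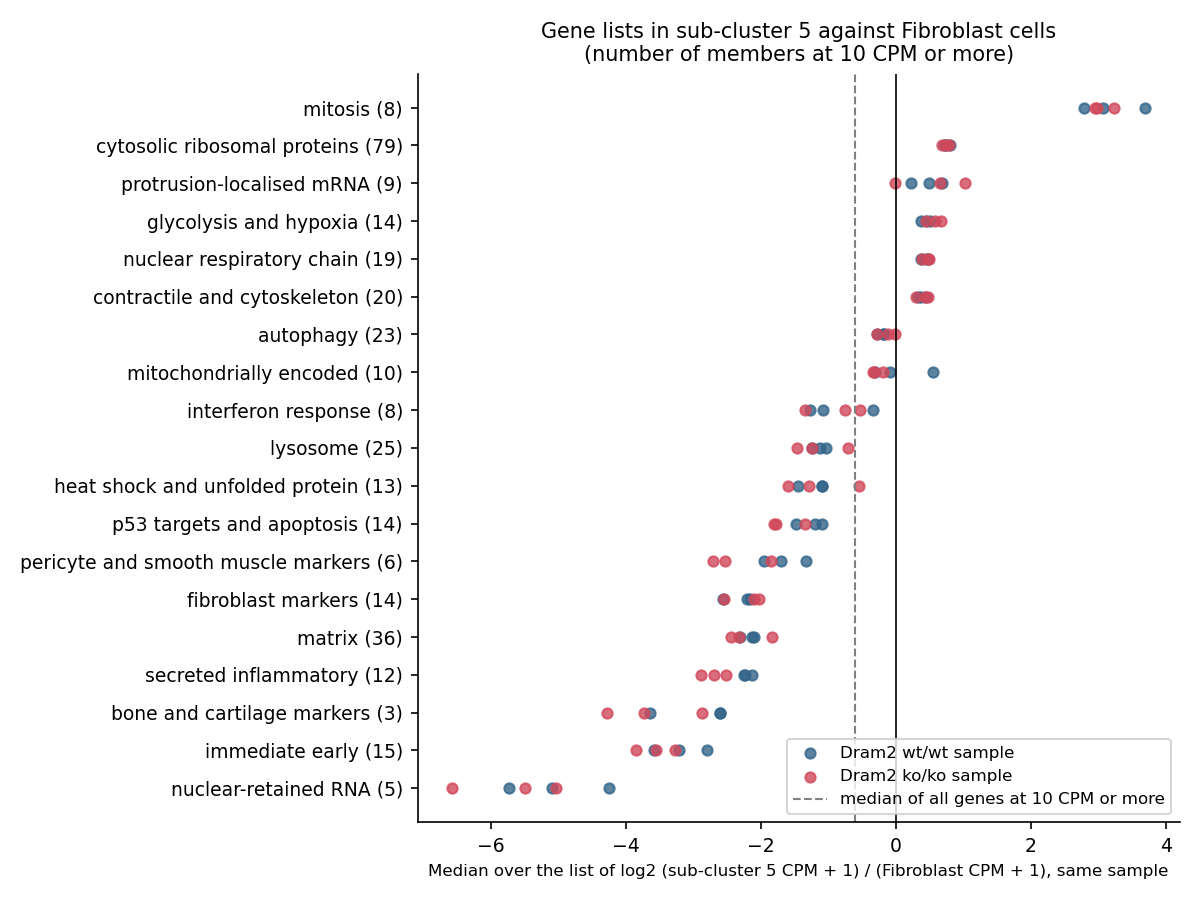
Gene lists in sub-cluster 5 against Fibroblast cells, 1 point per sample and list, with the median log2 ratio of its members on the horizontal axis and the number of measured members in brackets. Nuclear-retained RNA, immediate early and matrix lists lie to the left of the median of all genes (dashed, -0.61) and mitosis and ribosomal protein lists to the right of 0 in all 6 samples.

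The ratio to Fibroblast cells also ran with transcript length. Among protein-coding genes whose longest annotated transcript was up to 1000 bases, 390 in number, the median log2 ratio was 0.45, and it was -0.01 from 1000 to 2000 bases and -0.36 from 2000 to 3000 bases. It continued through -0.72 and -1.18 to -1.58 for the 821 genes with transcripts over 7000 bases, of which 86.4% were lower in all 6 samples and 3.05% higher. The order of these 6 classes was a property of annotated, not measured, transcripts, since the assay reads only their 3′ ends. Annotated transcripts of the ribosomal and respiratory chain genes are mostly shorter than those of the matrix, vinculin and filamin genes, so length and function cannot be told apart for these lists. Fos, Jun, Ccn1 and Adm were low with annotated transcripts of 2108, 3189, 2019 and 1390 bases, and Cenpe, a mitotic kinesin, was high with 7910 bases. These are single picked genes, and the part of length was not tested.

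**Figure D3:**
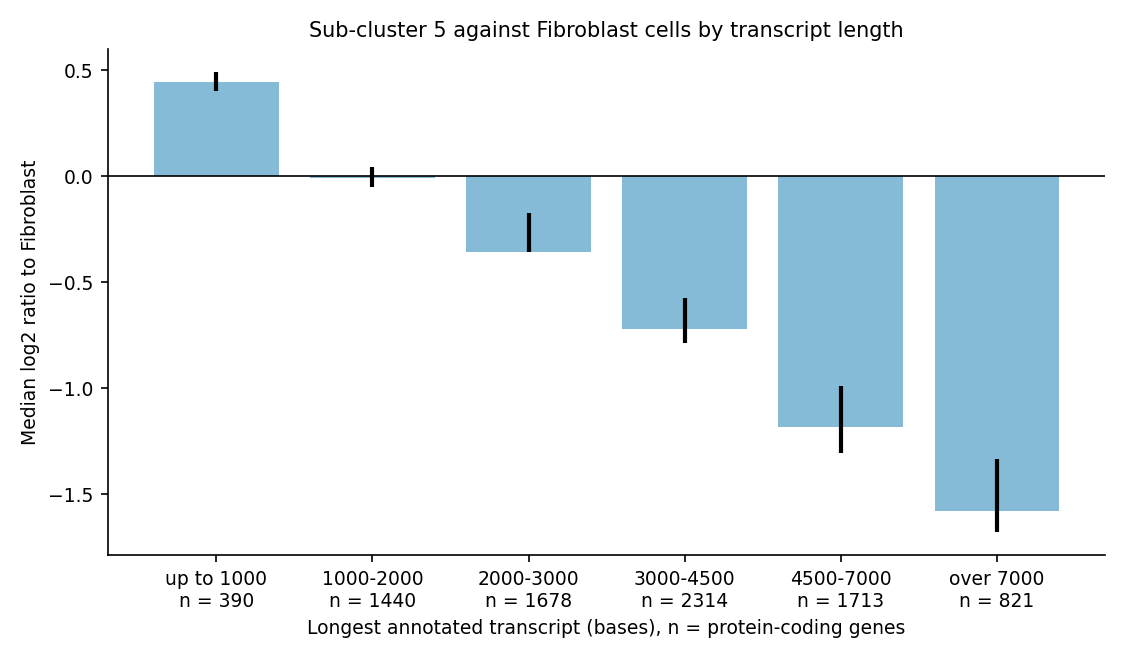
Median log2 ratio of sub-cluster 5 to Fibroblast CPM (vertical axis) over protein-coding genes in 6 classes of annotated transcript length (horizontal axis, bases). Black lines span the 6 samples, and the bars descend from 0.45 in the shortest to -1.58 in the longest class.

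Mitotic transcripts stood highest of all against Fibroblast cells. The 12 genes highest against Fibroblast cells were Ube2c, Birc5, Cenpa, Pclaf, Cdc20, Cenpe, Cdkn3, Cdca3, Ccnb2, Kif20a, Tacc3 and Racgap1, which act in chromosome segregation, cell division or, for Pclaf, DNA replication. Fibroblast markers could hardly lead a ratio to fibroblasts, so their absence from these 12 genes is not read. The cells are called by their number here, not by a cell type, for their low depth and for fibroblast markers mostly below the Fibroblast level. Summed, these markers were at a mean of 4203 CPM, against 6761 CPM in Fibroblast 2 and 9889 CPM in Fibroblast cells. Fibroblast 2 cells thus also lay below the Fibroblast level. Ube2c, the ubiquitin-conjugating enzyme of the anaphase-promoting complex, was at 295, 232 and 279 CPM in Dram2 wt/wt and 414, 361 and 280 CPM in Dram2 ko/ko samples, against a Fibroblast range of 9.50 to 14.4 CPM. Cenpa, the histone H3 variant of the centromere, was at 180, 174 and 171 CPM in Dram2 wt/wt and 201, 219 and 197 CPM in Dram2 ko/ko samples, against a Fibroblast mean of 9.39 CPM. All 8 measured members of the mitosis list were higher in all 6 samples, with a median log2 ratio of 3.01.

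This contrast depended on the comparator, because the study had set cycling cells apart as Fibroblast proliferating. Against all other cells of the other 3 fibroblast types together, the median of the mitosis list was 0.05. The list summed to between 636 and 885 CPM in sub-cluster 5, against 81.0 CPM in Fibroblast and 2086 CPM in Fibroblast proliferating cells. Other types of the culture held 133 CPM (Endothelial), 612 CPM (Myeloid), 660 CPM (RPE) and 1796 CPM (Pericyte), so Myeloid and RPE cells were near the sub-cluster 5 level. Sub-cluster 5 reached 124% of the Fibroblast proliferating level for Cdkn3, a phosphatase of cyclin-dependent kinases, 94.4% for Ccnb2, a mitotic cyclin, 89.5% for Cenpa and 87.2% for Cdc20, the activator of the anaphase-promoting complex. The same comparison gave 13.4% for Top2a, topoisomerase II alpha, and 8.81% for Mki67, the Ki-67 protein. Top2a was at 52.5 ± 13.8 CPM and Mki67 at 8.87 ± 4.97 CPM in sub-cluster 5, against 392 and 100.7 CPM in Fibroblast proliferating cells. Both have long annotated transcripts, of 5221 and 10061 bases, and whether length bears on these levels was not tested.

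Some further genes stood highest against all other cells of the series, and were picked after their values had been seen. Cdkn3 led, followed by Rab13, a small GTPase of the secretory pathway. Rab13 was at 144, 157 and 130 CPM in Dram2 wt/wt and 199, 126 and 179 CPM in Dram2 ko/ko samples, against a Fibroblast range of 35.4 to 49.5 CPM, and it was seen in 25.2% of sub-cluster 5 cells and 8.08% of Fibroblast and 6.94% of Endothelial cells at 2000 UMIs (49.8%, 61.7% and 34.4% before thinning). Cenpb, a centromere protein, was at 358 CPM and Cyb5r3, cytochrome b5 reductase 3, at 510 CPM, against 99.5 and 159 CPM in Fibroblast cells. Rab13 and Cyb5r3 belong to the messages known to gather in the protrusions of fibroblasts. Of 9 such genes, a list also put together after these values were known, 4 were higher in all 6 samples and 1, Kank2, an adaptor at cell adhesions, was lower, with a median log2 ratio of 0.60. These counts include Rab13 and Cyb5r3, which had been picked for being high, and nothing is read from them.

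Within sub-cluster 5 the nuclear-retained, mitosis and matrix lists showed no steady trend with depth, whereas some other lists did. Cells were split by UMI count into 3 groups of like size, with medians of 4165, 5776 and 9397 UMIs. Nuclear-retained RNA was at 619, 461 and 638 CPM from the shallowest to the deepest group, the mitosis list at 714, 672 and 800 CPM, and the matrix list at 10460, 11548 and 10609 CPM. Immediate early genes were at 421, 327 and 245 CPM, a decline towards the deeper cells. Ribosomal protein genes also declined, from 56484 to 50969 CPM, and lysosomal genes rose from 3481 to 4248 CPM. Mitochondrially encoded genes were at 26721, 19996 and 20497.5 CPM. Across 8886 genes the log2 CPM profiles of pairs of samples correlated with a Pearson r of 0.917 to 0.965, a value across genes, which are not independent replicates.

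The number of sub-cluster 5 cells differed between samples more than between genotypes. It was 147 cells or 3.85% (95% Wilson interval for counting error only, 3.28 to 4.50%), 91 cells or 1.98% (1.61 to 2.42%) and 107 cells or 2.48% (2.05 to 2.98%) in the Dram2 wt/wt samples. The Dram2 ko/ko samples held 216 cells or 10.1% (8.89 to 11.4%), 87 cells or 1.31% (1.06 to 1.61%) and 115 cells or 2.95% (2.47 to 3.53%). Dram2 ko/ko replicate 1 stood apart from the other 5, and it also had the fewest cells, 2140 of the 2140 to 6648 per sample, and the highest Fibroblast depth. The same sample held 89 of the 168 Fibroblast-like cells of sub-cluster 8, the cells of mostly mitochondrial UMIs, which made up 4.16% of its cells against at most 0.873% in the other samples. The part of these features in its high share of sub-cluster 5 was not tested. The mean share was 2.77% ± 0.967 for Dram2 wt/wt against 4.78% ± 4.67 for Dram2 ko/ko samples (SD, n = 3 each), and an exact two-sided permutation test gave p = 0.8, where the smallest p that 3 against 3 samples allow is 0.1. Without Dram2 ko/ko replicate 1 the difference turned from 2.02 to -0.636 percentage points.

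Depth, mitochondrial content and the share of cells with mitotic transcripts did not separate the genotypes either. The median UMIs averaged 5676 ± 181 for Dram2 wt/wt against 5822 ± 490 for Dram2 ko/ko samples (exact permutation p = 0.6), and mitochondrially encoded genes took 3.39% ± 1.74 and 2.50% ± 0.346 of the summed UMIs (exact permutation p = 0.7). Cells with a UMI of any of the 10 mitosis genes at 2000 UMIs made up 53.1%, 42.9% and 43.0% of the Dram2 wt/wt and 51.9%, 52.9% and 49.6% of the Dram2 ko/ko samples. The means were 46.3% ± 5.85 and 51.4% ± 1.69, with overlapping groups (exact permutation p = 0.4). Over all samples this share was 49.5%, against 15.02% of Fibroblast, 7.29% of Endothelial and 90.9% of Fibroblast proliferating cells, or 63.2%, 72.8%, 27.8% and 99.8% before thinning. It was 36.9% of Myeloid, 54.9% of RPE and 66.6% of Pericyte cells (75.0%, 89.3% and 82.8% before thinning), so such a share was not particular to sub-cluster 5. All 4 values of p were 0.8 after Benjamini-Hochberg adjustment over these 4 measures.

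**Figure D4:**
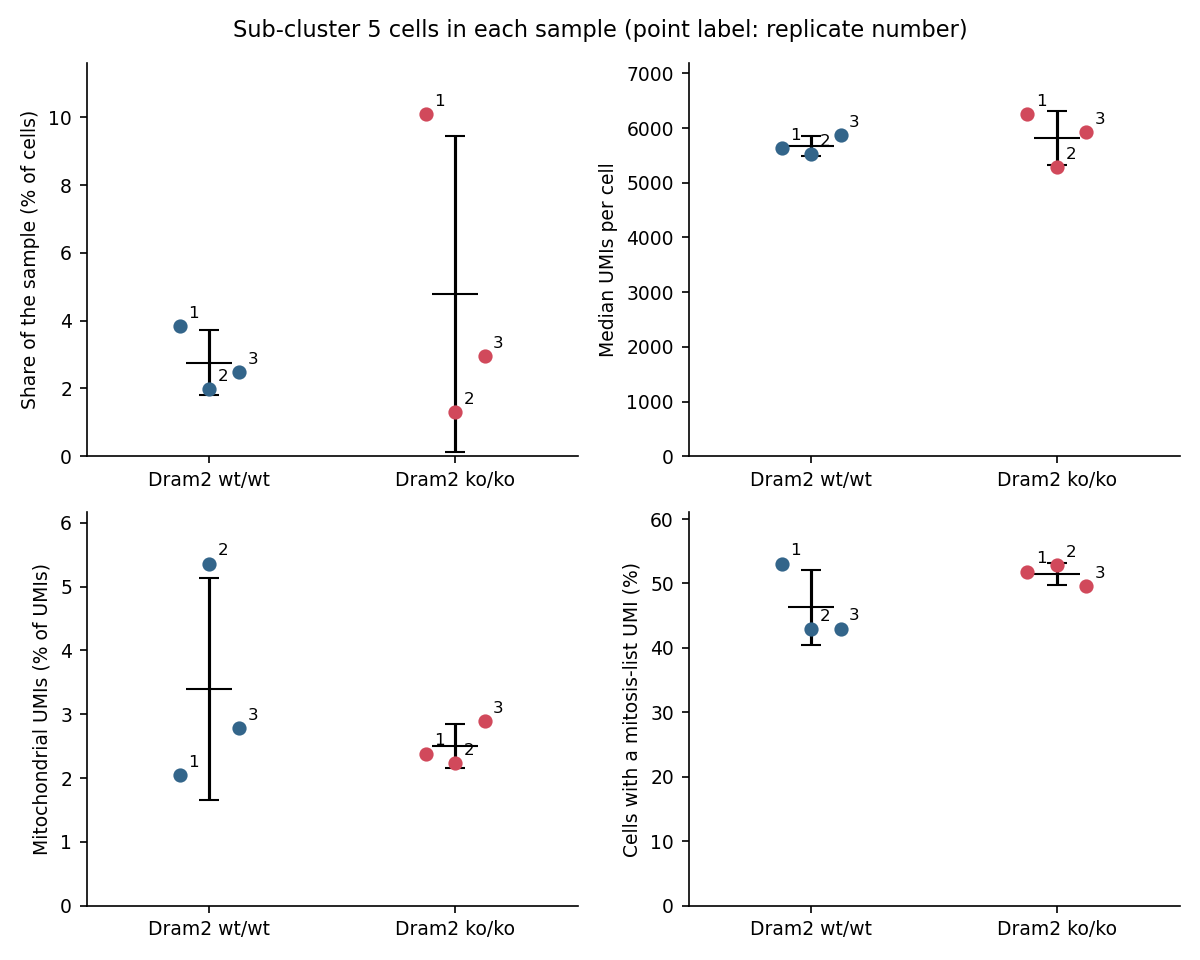
Sub-cluster 5 in each sample, with 1 panel each for its share of the cells, its median UMIs per cell, its mitochondrial UMIs and its cells with a UMI of the mitosis list at 2000 UMIs. Points are samples, horizontal lines means and bars SD (n = 3), and Dram2 ko/ko replicate 1 at 10.1% lies above the other 5 samples in the first panel.

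Gene expression was then compared between the genotypes over the summed UMIs of each sample, which asks whether loss of Dram2 changed these cells. Of 5923 genes tested with voom-limma, none passed an adjusted p of 0.05, a background of 0%, and before adjustment p was under 0.05 for 437. With edgeR (quasi-likelihood) 6 genes passed (0.101%) and with DESeq2 42 (0.709%), of which 24 were pseudogenes and 16 others shared 5% or more of their 3′ sequence with another gene. The remaining 2, named after their values were seen, were Crip1, a LIM domain protein gene, and Lgals3. Crip1 was at 333, 382 and 403 CPM in Dram2 wt/wt and 221, 104 and 191 CPM in Dram2 ko/ko samples (log2 fold change -1.12 ± 0.23 SE, voom-limma adjusted p = 0.115, DESeq2 adjusted p = 0.00333). Without Dram2 ko/ko replicate 1, voom-limma called 69 genes (1.12%), 68 of them lower in Dram2 ko/ko, of which 30 were pseudogenes and 34 others shared such sequence. It called 5 genes without Dram2 ko/ko replicate 3 (0.0807%), 5 without normalization beyond library size (0.0844%) and 23 without a filter on low counts (0.122%). Without overlap between the genotypes, 6.3% of genes were lower and 7.63% higher in Dram2 ko/ko. Dram2 itself (chromosome 3, 106547798 to 106575890) was at 19.2, 19.9 and 12.3 CPM in Dram2 wt/wt and 10.6, 14.0 and 16.1 CPM in Dram2 ko/ko samples, with overlapping groups (log2 fold change -0.46 ± 0.34 SE, voom-limma adjusted p = 0.83), and the value was -0.15 without Dram2 ko/ko replicate 1. The assay reads 3′ ends, which need not include the deleted part of the gene, so this level does not check the knockout.

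The 5 genes with the smallest p that were lower in all Dram2 ko/ko samples did not pass the test with voom-limma. Rps20, a small-subunit ribosomal protein (chromosome 4, 3831334 to 3835665), was at 1173, 1238 and 1408 CPM in Dram2 wt/wt and 676, 421 and 289 CPM in Dram2 ko/ko samples (log2 fold change -1.54 ± 0.23 SE, voom-limma adjusted p = 0.0709). The groups did not overlap, and 37.8% of its 3′ sequence occurs in other genes. Serf2, a small protein known to modify amyloid aggregation, stood at -1.14, Rpl41, a large-subunit ribosomal protein, at -1.14, Cox7c, a cytochrome c oxidase subunit, at -1.43, and Wdr89, a WD-repeat protein gene, at -1.26 on the log2 scale, with voom-limma adjusted p of 0.0709, 0.0715, 0.0766 and 0.0766. Each shared between 22.3% and 65.1% of its 3′ sequence with other genes, so that their counts are uncertain. Over 18 ways of fitting, Rps20 and Serf2 passed an adjusted p of 0.05 in 6, Rpl41 and Cox7c in 5 and Wdr89 in 4, and the adjusted p of Rps20 ranged from 6.39e-06 with DESeq2 to 0.405, with 0.048 in edgeR. In the Fibroblast cells of the same samples Rps20 differed by -1.52 and Cox7c by -1.47, and the test of the difference from Fibroblast cells gave 0.03 ± 0.12 SE for Rps20 and 0.01 ± 0.18 SE for Cox7c (voom-limma adjusted p = 0.996 for both), with a sign that changed between ways of fitting.

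The 5 genes with the smallest p that were higher in all Dram2 ko/ko samples did not pass with voom-limma either. Lgals3, galectin 3, a glycan-binding protein of phagocytes and fibroblasts (chromosome 14, 47367751 to 47386160), was at 213, 161 and 164 CPM in Dram2 wt/wt and 276, 451 and 294 CPM in Dram2 ko/ko samples. Its log2 fold change was 0.80 ± 0.17 SE (voom-limma adjusted p = 0.121), and none of its 3′ sequence was shared. Over 19 ways of fitting its adjusted p ranged from 0.0142 to 0.681 and passed 0.05 in 3. In Fibroblast cells it was 0.22, and the difference between both cell groups was 0.65 ± 0.21 SE (voom-limma adjusted p = 0.996, edgeR adjusted p = 0.00961). Hspb1 stood at 0.48, Hnrnpa0, an RNA-binding protein, at 0.57, Decr1, an enzyme of fatty acid oxidation, at 0.55, and Cd63, a membrane protein of late endosomes, at 0.42, with voom-limma adjusted p between 0.185 and 0.368. Hspb1 and Cd63 shared 40.5% and 50.6% of their 3′ sequence with other genes, so their counts are uncertain too, and Hnrnpa0 and Decr1 shared none.

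**Figure D5:**
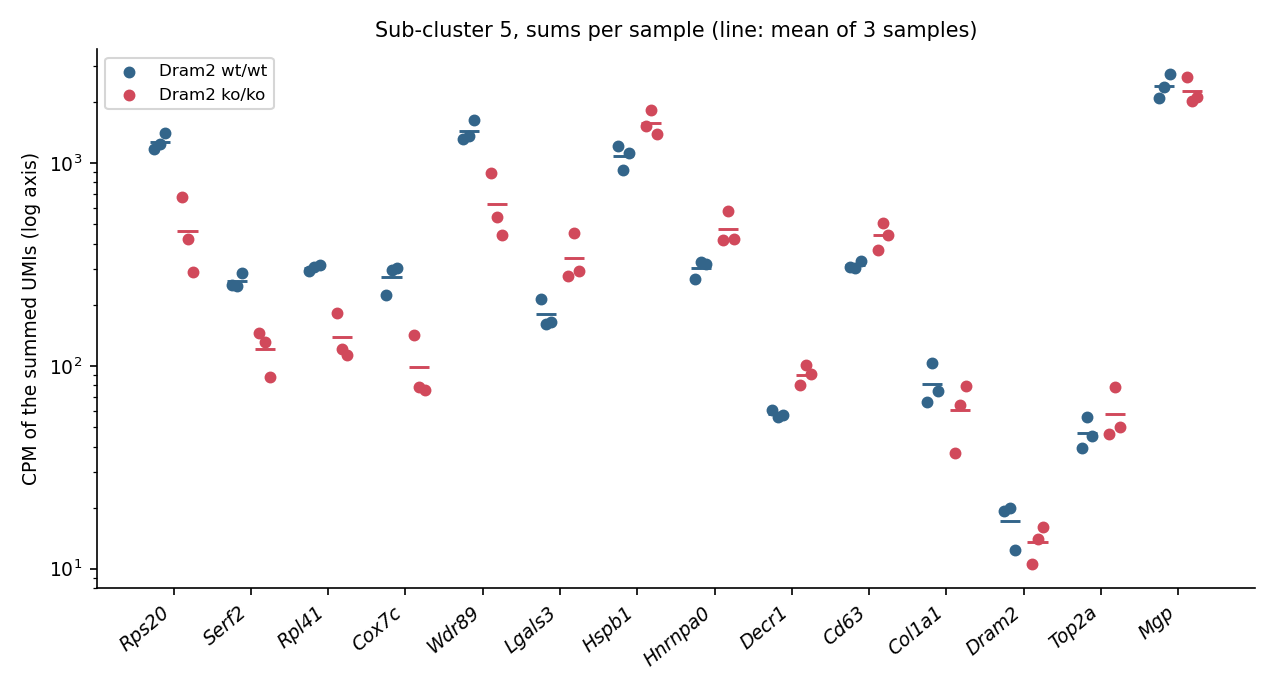
CPM of 14 genes in the summed sub-cluster 5 cells of each sample (vertical log axis), with lines at the mean of 3 samples. The first 5 genes are lower and the next 5 higher in all Dram2 ko/ko samples without passing the test, and the groups of Col1a1, Dram2, Top2a and Mgp overlap.

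No member of the gene lists was called by voom-limma over all 6 samples with TMM and the filter on low counts. The median log2 fold change was 0.00 over all 5923 genes, with 5% and 95% points of -0.64 and 0.40. It was -0.19 over 79 ribosomal protein genes, -0.21 over 31 matrix genes, -0.25 over 11 fibroblast markers, -0.45 over 8 secreted inflammatory and -0.37 over 7 immediate early genes. It was 0.15 over 8 mitosis genes, 0.02 over 20 contractile genes, -0.03 over 22 lysosomal and 0.10 over 17 autophagy genes, all with 0 genes called in that fit. Of the 79 ribosomal protein genes 25 were lower and 5 higher without overlap, against 6.3% and 7.63% of all genes. Other fits called ribosomal protein genes, each lower in Dram2 ko/ko. These were 2 of 79 with edgeR (Rps20 and Rpl41, against 0.101% of all genes), 7 with DESeq2 (0.709%), and with voom-limma 12 without Dram2 ko/ko replicate 1 (1.12%), 1 without replicate 3 (0.0807%), 2 with library size alone (0.0844%) and 4 without a filter (0.122%). Their counts are uncertain for the shared sequence. Cox7c of the respiratory chain list was called lower in 5 of these 6 fits, all but that without replicate 3, with the same shares of all genes. Fn1 of the matrix list was called lower without Dram2 ko/ko replicate 3 and Il11 of the secreted list without replicate 1, and Hspb1 of the heat shock list was called higher without a filter. Among the fixed genes Mgp differed by -0.12, Col1a1 by -0.60 and Top2a by 0.20 (voom-limma adjusted p = 0.905, 0.686 and 0.904). As above, Col1a1 is not read as expression in these cells. On leaving out 1 sample Col1a1 ranged from -0.88 to -0.15, the latter without Dram2 ko/ko replicate 1, and Top2a from 0.03 without Dram2 wt/wt replicate 1 to 0.38 without Dram2 ko/ko replicate 1, with 0.07 without Dram2 ko/ko replicate 2. Dram1, a paralogue of Dram2, and Mki67 had too few UMIs to pass the filter. Dram1 was at 8.07, 10.9 and 8.22 CPM in Dram2 wt/wt and 7.63, 2.01 and 14.9 CPM in Dram2 ko/ko samples, and Mki67 at 12.1, 1.81 and 13.7 CPM against 12.9, 4.01 and 8.69 CPM, with overlapping groups for both.

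The difference between genotypes was also compared with that in Fibroblast cells, with the sample as a block for its pair of summed cell groups. Of 17857 genes, none passed an adjusted p of 0.05 with voom-limma (0%), 751 had an unadjusted p under 0.05, and edgeR called 19 (0.106%). The filter on low counts ran over both cell groups together, so a gene could pass through the deeper Fibroblast sums alone. In sub-cluster 5 by itself 5923 genes had passed. The adjusted p thus covers many genes with few UMIs in sub-cluster 5, and no conclusion is drawn from the number of calls. Il11, interleukin 11, a cytokine of fibroblasts, had the smallest p of edgeR together with Malat1. It was at 256.2, 168 and 205 CPM in Dram2 wt/wt and 155, 106 and 91.8 CPM in Dram2 ko/ko samples of sub-cluster 5, a log2 fold change of -0.84 (voom-limma adjusted p = 0.185), and differed by 0.48 in Fibroblast cells. The difference was -1.26 ± 0.17 SE by voom-limma (adjusted p = 0.806) and -1.31 by edgeR (adjusted p = 2.49e-12). For Malat1 it was -1.51 ± 0.55 SE by voom-limma (adjusted p = 0.996) and -1.30 by edgeR (adjusted p = 2.49e-12), although its sub-cluster 5 samples overlapped between the genotypes. On leaving out 1 sample the Malat1 difference ranged from -1.93 without Dram2 wt/wt replicate 3 to -0.94 without Dram2 ko/ko replicate 1. Of 13 ways of fitting, edgeR was the only one to call either gene. The others were all variants of voom-limma, and DESeq2 was not run for this comparison. Why the tools differ was not tested.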

How the data were processed

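Single-cell libraries (10x 3′ v2) of 6 samples were processed by the authors with Cell Ranger 3.1.0 on GRCm38, per the labels and methods exons only, into deposited UMI counts per gene and cell, with a deposited table of cell types and sub-clusters. Samples totalled 96808998 to 122746184 UMIs. Members and gene lists were chosen with earlier results of these data known. Counts of sub-cluster 5 cells were summed per sample and tested with voom-limma 3.58.1, the method the study names, here with TMM, filterByExpr, Benjamini-Hochberg adjustment and no fold threshold, and with edgeR 4.0.16 and DESeq2 1.42.0 as alternatives. Fits were also run on data simulated with a single dispersion for all genes and no outlying sample. That setting differs from these data, so it does not check the number of calls. Ratios to Fibroblast cells used CPM plus 1. Named genes were the 12 highest and 12 lowest ratios at 50 CPM or more without pseudogenes, the 5 smallest p in each direction with separate groups where under 5 were called, up to 4 leading members of each list, and Dram2, Dram1, Mgp, Col1a1, Mki67 and Top2a. Gene names and coordinates came from GENCODE M21 for 52489 of 52636 IDs. Shared 3′ sequence was the share of 31-base words in the last 400 bases of a gene's transcripts found in another gene on either strand. The labels do not say whether replicate numbers pair samples, and the numbers were taken not to.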

Additional observations from a re-analysis of the deposited data

How the results depend on the processing

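Against Fibroblast cells under 10000 UMIs, the log2 medians moved to -6.09 for nuclear-retained RNA, -2.47 for matrix, 0.92 for ribosomal protein and 2.56 for mitosis genes, and the mitosis list stood at 0.052 against the other 3 fibroblast types; these alternatives were chosen after seeing the data, and the comparators hold other cells by construction. Leaving out 1 sample gave -5.44 to -5.10, -2.22 to -2.12, -3.47 to -3.24, 0.72 to 0.75 and 2.95 to 3.07 for the nuclear-retained, matrix, immediate early, ribosomal and mitosis lists. The genotype difference in share ranged from -0.636 to 3.76 percentage points (reversed without Dram2 ko/ko replicate 1), that in median UMIs from -70.3 to 412 (reversed without the same sample), that in mitochondrial percent from -1.56 to 0.0929 (reversed without Dram2 wt/wt replicate 2) and that in mitotic share from 3.40 to 8.51 percentage points. With only cells of 500 or more genes and 20% or less mitochondrial UMIs, the mitotic difference was 1.71 instead of 5.13 percentage points. The mitochondrial one went from -0.89 to -0.128. That filter removed only 12 of the 763 cells, and thinning draws UMIs at random, so the mitotic change is not read as an effect of the filter. The error of the draw was not measured. Without thinning the mitotic difference was 4.66 percentage points. Without that filter, Mki67 and Top2a alone gave 2.21 and a median over cells -0.243.

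Called genotype genes numbered 0 in the voom-limma result, 6 with edgeR, 42 with DESeq2, 5 with library size alone (Rps20, Serf2, Rpl41, Cox7c and Wdr89), 23 of 18897 without a filter and 0 to 69 on leaving out 1 sample, namely 69 if Dram2 ko/ko replicate 1 was left out, and 5 if replicate 3 was (Fn1, Rps20, Serf2, Rps15-ps2 and Gm10269). The cause was not tested. With the replicate block no gene was called (lowest adjusted p = 0.226, voom-limma), the same-numbered samples' deviations correlated at -0.0317, -0.0375 and 0.00876, and the numbers were taken not to pair samples. The difference from Fibroblast cells gave 0 calls on leaving out 1 sample and 19 with edgeR, over genes filtered on both cell groups together. Mgp reversed to 0.0015 without a filter and to 0.0039 without Dram2 ko/ko replicate 2 (range on leaving out 1 sample, -0.26 to 0.0039), and none of the other 16 genes whose genotype difference was recomputed reversed. The differences from Fibroblast cells of Rps20 and Cox7c, near 0, changed sign with edgeR (-0.028 and -0.021), with the cell filter (-0.022 and -0.027) and against sub-cluster 1 of Fibroblast (-0.025 and -0.023), for Cox7c also with RLE factors (-0.017) and library size alone (-0.011), and ranged on leaving out 1 sample from -0.15 to 0.10 and -0.12 to 0.10. Restricting the genes to those with under 5% shared sequence, chosen after seeing the data, left 0 of 3762 called. With 87 to 216 cells per sample, genes under about 10 CPM rest on a few UMIs.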

Other observations

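Several further genes were higher in sub-cluster 5 than in all other cells of every sample and were picked after their values were seen. S100a4 and S100a11, calcium-binding proteins, stood at 1595 and 1639 CPM against 645 and 675 CPM in all other cells, and Txn1, thioredoxin, at 2164 CPM against 950 CPM. Anp32b, a nuclear acidic protein and histone chaperone, was at 394 CPM against 141 CPM, and Maff, a small bZIP transcription factor, at 231 CPM against 91.4 CPM. Rassf3, a Ras-association domain protein gene, was at 84.6 CPM against 23.4 CPM, with a lowest log2 ratio of 1.39 among the 6 samples.

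The 49 cells that carried sub-cluster number 5 under other type names held a median of 7891 UMIs. Pooled over samples, Malat1 stood at 643 CPM in them against 561 CPM in the pooled cells of sub-cluster 5, Col1a1 at 206 CPM against 63.8 CPM, and Ube2c at 77.1 CPM against 329 CPM.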
